A study of Mus musculus with 37 samples.

Results

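UDP-glucuronosyltransferases (UGTs) and cytosolic sulfotransferases (SULTs) were followed in the livers of wild-type CD1 mice given HFPO-DA, a short-chain perfluorinated ether acid, by oral gavage. Every gene whose symbol begins with Ugt1, Ugt2, Ugt3 or Ugt8 and a letter, or with Sult and a digit, was taken, which gave 42 of the 21450 gene symbols in the count table (21 UGT and 21 SULT genes). They are covered by 65 of the 30146 probes, and each gene was read by its probe with the highest total count. Male and female parental mice received the vehicle alone or a daily dose of 0.1 mg/kg, of 0.5 mg/kg or of 5 mg/kg, and no group differed from another in genotype. Males were dosed from before mating until its end and females, which were older when dosing began, from before mating until late lactation. Sex, age, lactation and length of dosing therefore cannot be told apart. From vehicle to the highest dose there were 5, 5, 5 and 4 males, while the females numbered 5, 5, 4 and 4, each mouse a separate animal. RNA of fixed and paraffin-embedded liver sections was read with TempO-Seq, where pairs of probes are ligated on their target transcript, amplified and counted.

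UGTs are enzymes of the endoplasmic reticulum that attach glucuronic acid, taken from UDP-glucuronic acid, to bilirubin, steroid and thyroid hormones, bile acids and drugs. SULTs act in the cytosol and attach a sulfonate group, taken from the donor PAPS, to phenols, steroids, bile acids and amines. Both make their substrates more soluble, so that these can leave the hepatocyte into bile or blood, and several mouse SULTs are known to be made mainly in the female liver.

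The 9 Ugt1a genes lie in 1 cluster on chromosome 1 and differ in their first exon, while the later exons are common to all. In the GENCODE M21 annotation of GRCm38 the last 737 coding bases, about 46% of each coding sequence without its stop codon, were identical in the 9 genes. The stretches below run across the point where this identity begins, with the 24 bases before it in lower case and its first 24 bases in capitals. The exon boundary itself was not located and may lie some bases away. They are shown because a probe on the common part would count all 9 genes together.
Ugt1a1: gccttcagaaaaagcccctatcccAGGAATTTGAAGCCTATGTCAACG
Ugt1a2: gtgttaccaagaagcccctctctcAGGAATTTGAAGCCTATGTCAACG
Ugt1a5: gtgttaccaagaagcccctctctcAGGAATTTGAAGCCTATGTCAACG
Ugt1a6a: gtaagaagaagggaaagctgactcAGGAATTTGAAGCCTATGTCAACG
Ugt1a6b: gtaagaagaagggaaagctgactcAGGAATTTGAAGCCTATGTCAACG
Ugt1a7c: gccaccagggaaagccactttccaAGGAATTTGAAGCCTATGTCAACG
Ugt1a8: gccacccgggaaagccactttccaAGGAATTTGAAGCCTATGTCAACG
Ugt1a9: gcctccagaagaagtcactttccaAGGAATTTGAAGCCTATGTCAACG
Ugt1a10: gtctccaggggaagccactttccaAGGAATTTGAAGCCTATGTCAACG

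The lower-case stretches of Ugt1a2 and Ugt1a5 are the same as printed, as are those of Ugt1a6a and Ugt1a6b. The probe sequences were not used here, so which part of a Ugt1a transcript each probe reads is not known. Close copies occur in the other families too: among coding sequences, Ugt2b5 and Ugt2b38 were 97% identical, Ugt2b5 and Ugt2b37 94.7%, Sult2a1 and Sult2a5 94.9%, Sult2a3 and Sult2a4 94.4%, Ugt3a1 and Ugt3a2 93.2%, and Sult3a1 and Sult3a2 90.9%. Values of these genes are uncertain to the extent that a probe reads more than 1 copy.

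The close Ugt2b copies also resemble each other upstream. The last 60 bases before the RefSeq start of 4 of them (GRCm38.p6, minus strand) are given with the longest stretch they have in common, 22 bases, in capitals; they are shown so that the common stretch can be read in each.
Ugt2b5 (chr5:87140341-87140400): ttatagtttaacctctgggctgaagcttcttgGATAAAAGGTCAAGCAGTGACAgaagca
Ugt2b36 (chr5:87092556-87092615): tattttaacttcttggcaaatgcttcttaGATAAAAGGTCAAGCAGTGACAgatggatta
Ugt2b37 (chr5:87254789-87254848): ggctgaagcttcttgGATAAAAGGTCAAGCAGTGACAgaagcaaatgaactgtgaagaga
Ugt2b38 (chr5:87424204-87424263): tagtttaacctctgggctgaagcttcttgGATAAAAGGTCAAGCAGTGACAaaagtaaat
Among the last 60 bases before each of the 39 starts available for 36 of the 42 genes, read on the gene's strand, the stretch was found in no other. Longer windows at the same starts, from 250 bases before to 50 after, were searched on both strands for a DR1. This is AGGTCA and again AGGTCA in the same direction, 1 base apart, with at most 1 mismatch, the form bound by PPARα with its partner RXRα. None of the 39 member windows held one, against 0.554% of 32851 windows of all genes. The antioxidant element core TGACNNNGC was in 0 of 39 and in 12.4% of all, and the Ah receptor element core GCGTG in 7 of 39 (17.9%) and in 32.4% of all. GCGTG was thus the only motif with a match in the member windows, and a match is a description of the letters only.

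Of the 42 genes, 34 passed the filter on low counts and were tested (20 UGT and 14 SULT genes). Sult1c1, Sult2a6, Sult2b1, Sult4a1, Sult6b1 and Sult6b2 had too few counts, and Sult2a4 and Ugt1a6b had no count in any mouse. Passing depends on the group with the higher counts, so counts among the 34 describe genes with enough signal in at least 1 group. Values are given as CPM, counts scaled to a common library size; a probe's count depends on its own efficiency, so levels are compared between mice for 1 gene and not between genes. Dosed mice were tested against vehicle mice of their sex with the quasi-likelihood test of edgeR, and a gene was called at a Benjamini-Hochberg adjusted p under 0.10 over all 18570 probes tested.

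Total counts were 2101495 to 10548222 in males and 7952605 to 13878254 in females, and males at 5 mg/kg had the lowest median, 5117935. The hepatocyte markers (Alb, Ttr, Apoa1, Apob, Cps1, Serpina1a, Fgb, Cyp2e1) were present in every group. Against 8.49% and 2.26% of all probes, 5 of 8 markers were called lower in males and 3 of 8 in females at 5 mg/kg. Their summed level was 35872 to 55807 CPM in vehicle males and 20901 to 27578 CPM in males at 5 mg/kg, while the female ranges, 30653 to 44848 and 31716 to 35414 CPM, overlapped. Their part in the results was not tested, and in sections of whole liver fewer cells of a type and less RNA per cell cannot be told apart. Of the markers of other cells, 1 of 5 for sinusoidal endothelium was called lower in males at 5 mg/kg, and none of 3 for cholangiocytes, 6 for Kupffer cells, 6 for stellate cells, 2 for red blood cells and 1 for neurons was called at 5 mg/kg in either sex.

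The lower doses gave no called member. At 0.1 mg/kg, 0 of 34 members were called in males and 0 of 34 in females by edgeR, as were 0% of all probes in each sex, and an unadjusted p under 0.05 was seen for 2 members in males and for 0 in females, against 7.14% and 2.38% of all probes. At 0.5 mg/kg, 0 of 34 were called in each sex, against 0.625% of all probes in males and 0.113% in females, and 2 members in each sex had an unadjusted p under 0.05, against 10.3% and 4.33% of all probes. DESeq2 in place of edgeR also called none of them at either dose.

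At 5 mg/kg, 13 of the 34 members fell and 1 rose in males, and 11 fell and none rose in females. Of all probes, 8.49% were called lower and 4.21% higher in males, and 2.26% lower and 2.26% higher in females. Both families were among them: 7 of 20 UGT and 6 of 14 SULT genes fell in males, and 6 of 20 and 5 of 14 fell in females. The median log2 fold change of the members was -0.49 in males and -0.94 in females, where that of all probes was -0.12 and -0.01, and it was the same to 2 decimals when members with a group at 0 counts were set to their bound. Every treated mouse lay below every control for 7 members in males and 8 in females, a pattern seen for 4.8% and 4.31% of all probes. Ugt2a3, Ugt2b1, Ugt2a2, Ugt1a10, Sult1a1, Sult1b1 and Sult5a1 were called lower in both sexes.

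**Figure D1:**
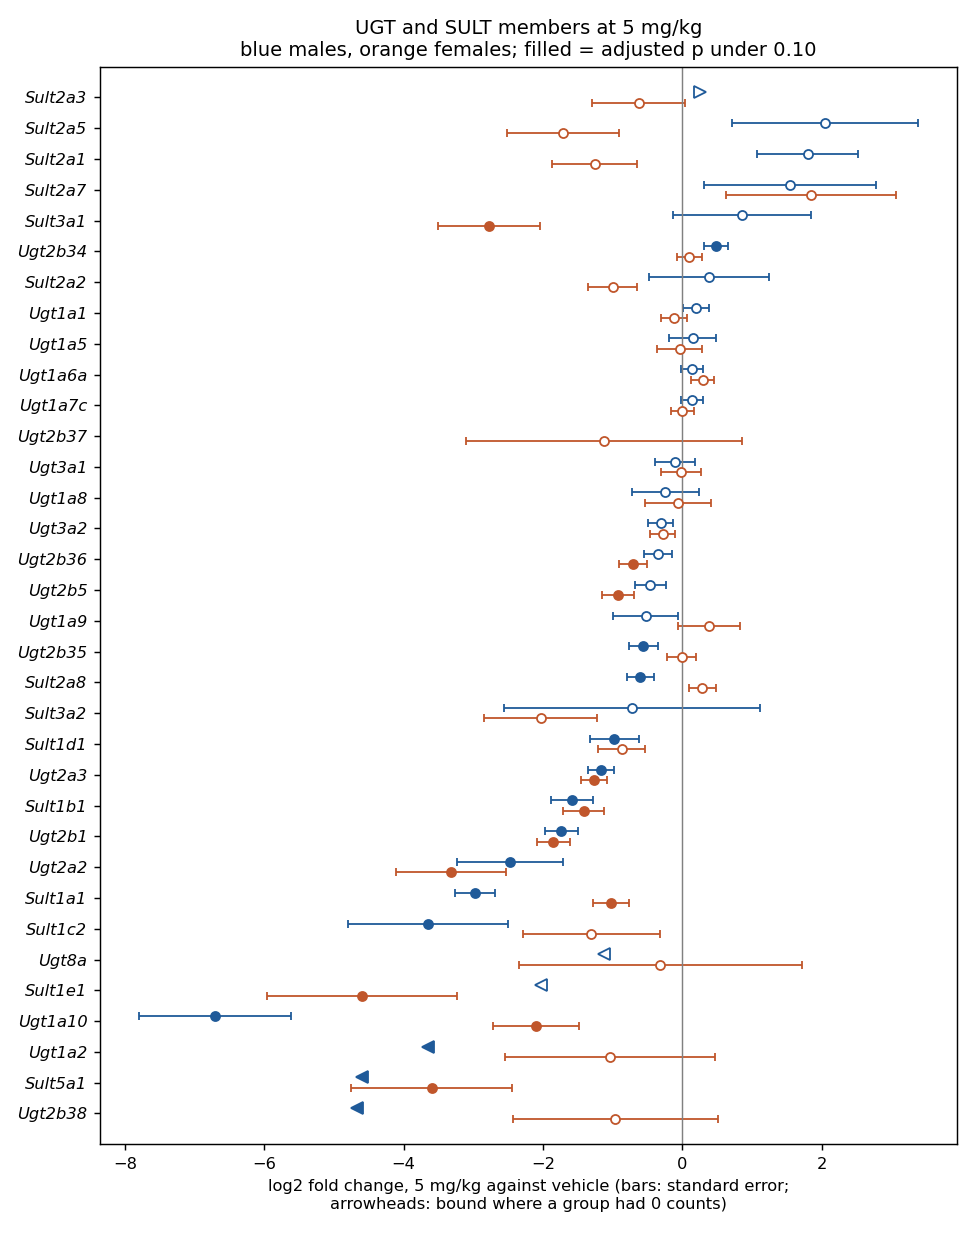
Log2 fold change at 5 mg/kg against the vehicle control for the 34 tested members (x axis; bars are 1 standard error, n = 4 treated and 5 control mice), with males in blue, females in orange and filled symbols for an adjusted p under 0.10. Arrowheads are bounds for members with 0 counts in a group, and Ugt2b37, at 0 in both male groups, has no male value; 13 male and 11 female symbols left of 0 are filled, and 1 to the right, Ugt2b34 in males.

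Among the UGT genes, Ugt2b1 and Ugt2a3 had the smallest p-values. Ugt2b1 (chr5, 86916638 to 86926530, minus strand) was read at 198, 57.6, 186, 114 and 138 CPM in the 5 vehicle males and at 42.9, 40.2, 38.3 and 44.7 CPM in the 4 males at 5 mg/kg. In females it was read at 49.6, 75.9, 77.3, 81.4 and 39.8 CPM in the vehicle group and at 18.2, 14.8, 19.6 and 19.1 CPM at 5 mg/kg. The groups did not overlap in either sex, and the treated mice lay close together. The log2 fold change was -1.74 ± 0.24 (SE) in males and -1.85 ± 0.24 (SE) in females (adjusted p = 1.1e-06 and 5.39e-07), 3.34-fold and 3.61-fold lower. At 0.1 and 0.5 mg/kg its values, 123 to 222 CPM in males and 48.8 to 81.8 CPM in females, lay above all of the treated mice of the highest dose.

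Ugt2a3, from a gene on the same chromosome (87324972 to 87337195, minus strand), behaved in the same way. It was read at 526, 301, 343, 529.7 and 369 CPM in vehicle males and 174, 208, 167 and 187 CPM in males at 5 mg/kg. The vehicle females had 435, 549.6, 433, 581 and 531 CPM and the females at 5 mg/kg 228, 188, 207 and 216 CPM. All treated mice were below all controls, with a log2 fold change of -1.17 ± 0.18 (SE) in males and -1.27 ± 0.18 (SE) in females (adjusted p = 1.31e-05 and 4.29e-06). Means at 0.1 and 0.5 mg/kg were 363 and 350.1 CPM in males and 482 and 402 CPM in females, against 414 and 506 CPM in the controls.

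Ugt2a2, which lies farther along the same chromosome, had low counts. Vehicle males had 11.4, 24, 32.6, 16.2 and 6.39 CPM and males at 5 mg/kg 0, 8.16, 0 and 3.71 CPM. Vehicle females had 26.1, 18.7, 6.27, 27 and 7.91 CPM and females at 5 mg/kg 3.38, 0.182, 3.16 and 0.170 CPM. The female groups did not overlap, while 1 male at 5 mg/kg lay above the lowest male control. It was called in males (log2 fold change -2.47 ± 0.76 (SE), adjusted p = 0.0333) and in females (-3.33 ± 0.79 (SE), adjusted p = 0.00675).

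Ugt1a10 was the Ugt1a gene called lower in both sexes. Vehicle males had 6.37, 5.97, 4.28, 8.90 and 5.12 CPM and the males at 5 mg/kg 0, 0, 0 and 0.155 CPM, the last being 1 count in the whole group against 234 in the controls. In vehicle males it was 138 times the level at 5 mg/kg, with an exact 95% interval of 24.5 to 5471 that covers counting error only (adjusted p = 2.52e-05). The females had 28.7, 20.5, 8.99, 19.8 and 23 CPM without and 1.28, 5.47, 5.36 and 6.55 CPM with 5 mg/kg. The groups were apart in both sexes, and the female log2 fold change was -2.10 ± 0.62 (SE) (adjusted p = 0.0463). That call was lost without vehicle female 1 or without female 1 or 3 at 5 mg/kg (adjusted p = 0.105, 0.203 and 0.116). Already at 0.5 mg/kg 2 of 5 males had no count, but 1 of these was the mouse of 2608954 total counts, and the group mean of 3.08 CPM was not called.

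**Figure D2:**
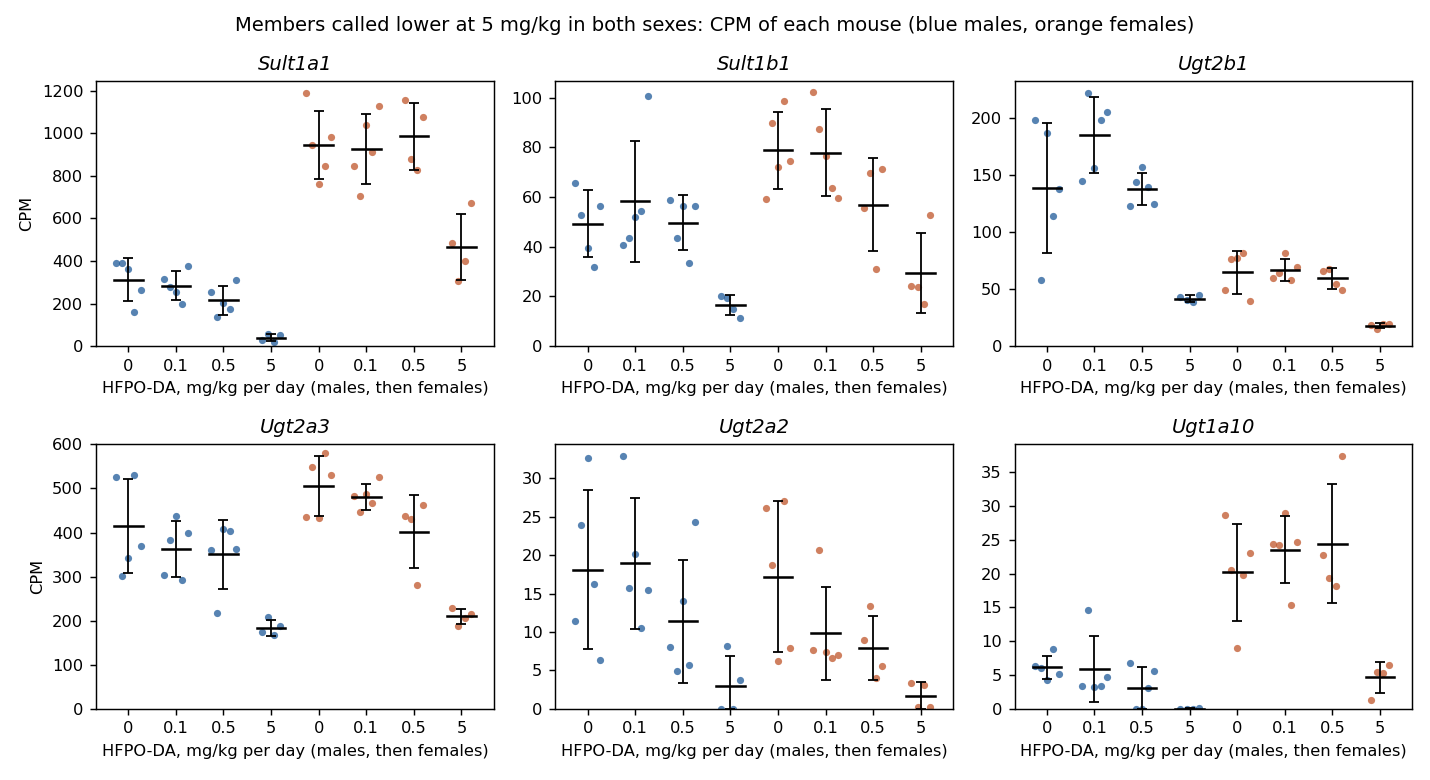
CPM of each mouse for 6 of the 7 members called lower at 5 mg/kg in both sexes, by dose in mg/kg per day (x axis), with males in blue and females in orange. Horizontal lines are group means and bars 1 SD, drawn down to 0 at most (n = 4 or 5 mice); Ugt2b1 at 5 mg/kg spans 38.3 to 44.7 CPM in males and 14.8 to 19.6 CPM in females, below every mouse of the other groups of that sex.

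The most abundantly counted Ugt1a probes did not pass the test at 5 mg/kg. Ugt1a1, the enzyme that conjugates bilirubin, was read at 623, 669, 412, 692 and 434 CPM in vehicle males and at 783, 709.9, 641 and 456 CPM in males at 5 mg/kg. In females the values were 2029, 1992, 1079, 1556 and 1551 CPM without and 1346, 1434, 1542 and 1708 CPM with 5 mg/kg. These groups overlapped in both sexes, with log2 fold changes of 0.19 ± 0.19 (SE) in males and -0.12 ± 0.19 (SE) in females (adjusted p = 0.607 and 1). Its second probe gave 0.39 and -0.00, also not called. Ugt1a6a, which conjugates small phenols, had 0.14 and 0.29, and Ugt1a5, Ugt1a8 and Ugt1a9 lay between -0.53 and 0.38 in both sexes, none of them called. The second probe of Ugt1a6a had -0.42 in males and -0.33 in females, also not called. For Ugt1a7c the probes differed: the one with most counts had 0.14 in males and -0.00 in females, while a second was lower in females (-1.06, adjusted p = 0.0109) and had -0.62 in males (adjusted p = 0.135). Ugt1a2 was called lower in males, with no count at 5 mg/kg against a mean of 1.68 CPM in controls, at least 12.5-fold lower against a floor of 3 counts in the group (adjusted p = 0.0512). Its male means did not follow the dose: 0.0638 CPM at 0.1 mg/kg, with 3 counts in the group, and 1.76 CPM at 0.5 mg/kg, neither called. The call at 5 mg/kg was lost without male 2 of that dose (adjusted p = 0.102), and the other probe of Ugt1a2 had 0.24. It was also lost with the probes of the gene summed (adjusted p = 0.541) and at a threshold of 0.05. With thinned counts and with each sex fitted apart, Ugt1a2 did not pass the filter.

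Of the other Ugt2b genes on chromosome 5, Ugt2b5 and Ugt2b36 were called in females and Ugt2b34, Ugt2b35 and Ugt2b38 in males, and edgeR called the difference between the sexes for none of them, nor did DESeq2. Ugt2b5 had 254, 488, 421, 449 and 335 CPM in vehicle females and 266, 85.8, 263 and 207 CPM in females at 5 mg/kg, with the lowest control inside the treated range. The log2 fold change was -0.92 ± 0.23 (SE) in females (adjusted p = 0.0102) and -0.46 ± 0.22 (SE) in males (adjusted p = 0.208). Ugt2b36 had 225, 286, 199, 222 and 224 CPM in vehicle females and 166, 78.1, 147 and 172 CPM at 5 mg/kg, without overlap. Its log2 fold change was -0.71 ± 0.20 (SE) in females (adjusted p = 0.0314) and -0.35 ± 0.20 (SE) in males (adjusted p = 0.294). The female call of Ugt2b36 was lost without vehicle female 2 or without female 2 at 5 mg/kg (adjusted p = 0.117 and 0.239). Its other 3 probes that passed the filter had female log2 fold changes of -1.10, -0.83 and -0.28, the first of them called, and the second probe of Ugt2b5 had -0.73, not called.

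Ugt2b38, whose coding sequence was 97% identical to that of Ugt2b5, was rarely counted. It was read at 1.80, 0, 9.63, 1.86 and 3.69 CPM in vehicle males and had no count in any male at 5 mg/kg, at least 25.4-fold lower (adjusted p = 0.0231). A male control was also at 0, so the groups touched, and in females the values were 0 to 1.33 CPM without and 0 to 0.936 CPM with 5 mg/kg. Ugt2b37 had no count in any male of the vehicle, 0.5 and 5 mg/kg groups, and 1.31 and 0.593 CPM in vehicle and 5 mg/kg females. In males, Ugt2b34 rose by a log2 fold change of 0.48 ± 0.17 (SE) (adjusted p = 0.0776), the mean being 447 ± 82.5 CPM (SD, n = 5) for the vehicle group and 623 ± 126 CPM (SD, n = 4) for the treated mice, and Ugt2b35 fell, with a log2 fold change of -0.56 ± 0.21 (SE) (adjusted p = 0.0938). Each of these 2 calls was lost without any 1 of 5 mice: vehicle males 2 and 3 and males 2, 3 and 4 at 5 mg/kg for Ugt2b34 (adjusted p = 0.127 to 0.258), and vehicle males 4 and 5 and males 1, 2 and 4 at 5 mg/kg for Ugt2b35 (adjusted p = 0.103 to 0.250). Ugt3a1 and Ugt3a2, which use sugars other than glucuronic acid, and Ugt8a, which makes galactosylceramide, were not called in either sex.

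Among the SULT genes, Sult1a1, the phenol sulfotransferase (chr7, 126672865 to 126676432, minus strand), was the member with the smallest p-value in males. Vehicle males had 390.2, 392, 361, 160.0 and 261 CPM, and males at 5 mg/kg 30.9, 55.3, 18.8 and 51.6 CPM. Vehicle females had 1188, 945, 764, 847 and 981 CPM, and females at 5 mg/kg 483, 304, 402 and 671 CPM. The treated mice of each sex were all below their controls, and each treated female was above each of the treated males. The log2 fold change was -2.98 ± 0.29 (SE) in males (7.90-fold lower, adjusted p = 3.84e-10) and -1.02 ± 0.26 (SE) in females (2.03-fold lower, adjusted p = 0.0135). The change in males differed from that in females by -1.96 ± 0.37 (SE) on the log2 scale (adjusted p = 0.00376), 1 of 34 members being called in that test by edgeR, against 0.63% of all probes. DESeq2 also called Sult3a1 and Ugt1a10 in it, and edgeR without the filter on low counts Sult2a1, Sult3a1 and Ugt1a10. Unadjusted, 9 of 34 members had p under 0.05 in it, against 10.7% of all probes. At 0.1 and 0.5 mg/kg Sult1a1 was at 285 and 217 CPM in males and at 926 and 986 CPM in females, not called.

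Sult1b1, which sulfonates phenols and thyroid hormones, fell in both sexes. It was read at 65.7, 52.8, 39.6, 32 and 56.4 CPM in vehicle males and at 20, 19.4, 15 and 11.3 CPM in males at 5 mg/kg. In females the values were 59.3, 90, 72.3, 98.6 and 74.4 CPM without and 24.2, 23.7, 17.1 and 53 CPM with 5 mg/kg. Treated and control mice did not overlap, with log2 fold changes of -1.58 ± 0.30 (SE) (adjusted p = 0.000314) and -1.42 ± 0.29 (SE) (adjusted p = 0.00135). Its second probe, which had fewer counts, gave -0.56 in males and -0.88 in females and was not called.

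Sult5a1 had few counts in all groups. Vehicle males had 2.76, 3.63, 3.21, 5.71 and 0.853 CPM and no male at 5 mg/kg had a count, at least 24.2-fold lower (adjusted p = 0.00207). Vehicle females had 6.39, 4.20, 2.53, 0.0984 and 2.50 CPM and females at 5 mg/kg 0, 0, 0.966 and 0 CPM. The female groups overlapped through vehicle female 4, and the female log2 fold change of -3.60 ± 1.16 (SE) passed the test narrowly (adjusted p = 0.0829). That call was lost without vehicle female 1, 2 or 5 or without female 1, 2 or 4 at 5 mg/kg (adjusted p = 0.101 to 0.252), and without female 3 at 5 mg/kg the treated group had no count.

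In males Sult1c2, Sult1d1 and Sult2a8 were also called lower. Sult1c2 had 14.6 ± 24.8 CPM (SD, n = 5) in vehicle males and 0.976 ± 1.71 CPM (SD, n = 4) at 5 mg/kg (log2 fold change -3.65, adjusted p = 0.0389), and without vehicle male 5 the value was -1.62 (adjusted p = 0.386). Without male 2 at 5 mg/kg it was -7.31. In females Sult1c2 had -1.31 (adjusted p = 0.787 by edgeR). With each sex fitted apart, Sult1c2 was called in females and its male call was lost. Sult1d1, which acts on catecholamines, had -0.98 in males and -0.87 in females (adjusted p = 0.0743 and 0.206). The male call was lost without vehicle male 1 or 2 or male 1, 3 or 4 at 5 mg/kg (adjusted p = 0.120 to 0.192). It was also lost with DESeq2 size factors, at a threshold of 0.05, with each sex fitted apart and without the 2 mice of lowest total counts. In females Sult1d1 was called by DESeq2, with thinned counts and with each sex fitted apart. The difference between the sexes was called by edgeR for neither Sult1c2 nor Sult1d1. Sult2a8, a bile acid sulfotransferase of the liver, had -0.60 in males and 0.29 in females (adjusted p = 0.0461 and 0.692). Its male call was lost without vehicle male 1 or male 3 at 5 mg/kg, the mouse of 2101495 total counts (adjusted p = 0.113 and 0.193). The other probes of Sult2a8 had -0.67 and -1.05 in males (adjusted p = 0.142 and 0.396), and -0.11 and 0.42 in females, none of them called.

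Between the vehicle controls of the sexes, SULT genes made up most of the members that differed. Of the 34 members, 10 were higher in vehicle females and 2 in vehicle males, against 1.36% and 1.24% of all probes. The 10 were Sult1a1, Sult1e1, Sult2a1, Sult2a2, Sult2a3, Sult2a5, Sult3a1, Sult3a2, Ugt1a1 and Ugt1a5, and the 2 were Ugt2b1 and Ugt2b35. In all, 8 of the 14 SULT genes tested were thus higher in females and none in males. DESeq2 gave no adjusted p for Sult1e1 and Sult2a5 here, and it called the 6 others.

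**Figure D3:**
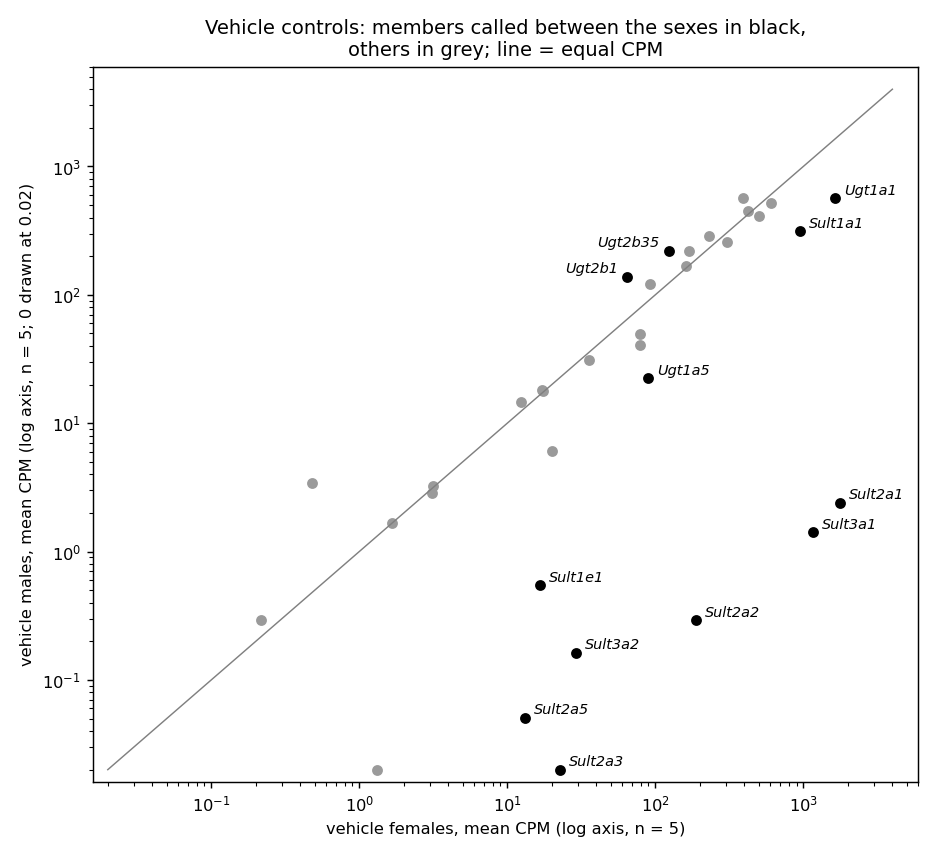
Mean CPM of the 34 tested members in vehicle females (x axis) and vehicle males (y axis), both on log axes, with n = 5 mice each and members called between the sexes in black. The line marks equal levels; Sult2a1, Sult2a2, Sult2a3, Sult2a5, Sult3a1 and Sult3a2 sit far below it, with Sult2a1 at 1781 CPM in females and 2.39 CPM in males, and Sult2a3, at 0 in males, is drawn at the lower edge.

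The Sult2a genes, which sulfonate hydroxysteroids and bile acids, are a cluster on chromosome 7. Sult2a1 was read at 2246, 1601, 1001, 1770.0 and 2288 CPM in vehicle females and at 2.40, 2.34, 2.94, 2.26 and 1.99 CPM in vehicle males. Sult2a2 was read at 201, 195, 135, 178 and 229 CPM in the same females and at 0, 0.649, 0, 0.664 and 0.142 CPM in the males. The males were thus near 0 for both, 742-fold and 618-fold lower (log2 difference -9.53 ± 0.83 (SE), adjusted p = 1.34e-11, and -9.27 ± 0.52 (SE), adjusted p = 4.57e-17). The second probe of Sult2a1 differed by -8.73. Sult2a3 had 20.6, 17.2, 1.97, 42.7 and 31.2 CPM in vehicle females and no count in vehicle males, at least 289-fold higher in females (adjusted p = 1.75e-07). Sult2a5 had 10.5, 11.2, 5.24, 11.1 and 28 CPM in vehicle females and 2 counts in all vehicle males, a ratio of 261 with an exact 95% interval for counting error of 71.9 to 2156 (adjusted p = 4.17e-06).

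Not all members of the cluster had this pattern. Sult2a7 had 3.11 ± 2.30 CPM (SD, n = 5) in vehicle females and 2.87 ± 4.94 CPM (SD, n = 5) in vehicle males (adjusted p = 1.0). Sult2a8 had 169 ± 41.6 CPM (SD, n = 5) and 219 ± 46.3 CPM (SD, n = 5) (adjusted p = 0.441), so neither was called between the sexes.

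Sult3a1, an amine sulfotransferase (chr10, 33857721 to 33879532, plus strand), was read at 534, 594, 3312, 1107 and 271 CPM in vehicle females and at 2.76, 1.43, 0.803, 0.797 and 1.28 CPM in vehicle males (log2 difference -9.65 ± 0.95 (SE), adjusted p = 5.08e-10). Its near copy Sult3a2 had 5.45 to 86.4 CPM in these females and 0 to 0.669 CPM in these males (-7.40 ± 1.07 (SE), adjusted p = 5.01e-06). Sult1e1, the estrogen sulfotransferase, had 17.9, 14.5, 2.72, 19.8 and 28.7 CPM in vehicle females and 0, 1.04, 0.134, 0 and 1.56 CPM in vehicle males (-4.92 ± 1.28 (SE), adjusted p = 0.0279). Ugt1a1 was 2.90-fold higher in vehicle females (adjusted p = 5.33e-08) and Ugt1a5 3.98-fold (adjusted p = 3.82e-05), while Ugt1a6a, Ugt1a7c, Ugt1a8 and Ugt1a9 were not called. In the other direction Ugt2b1 was 2.14-fold higher in vehicle males (adjusted p = 0.000976), with 1 male inside the female range, and Ugt2b35 1.79-fold (adjusted p = 0.0105). Red blood cell markers summed to 51.0 to 103.9 CPM in vehicle males and 0.885 to 6.27 CPM in vehicle females, and 1 of 2 was called; their part in these differences was not tested.

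With 5 mg/kg, the females' Sult3a1 and Sult1e1 fell, while Sult2a1, Sult2a2, Sult2a3 and Sult2a5 were lower in mean without passing the test in edgeR. Sult3a1 was read at 12.8, 139, 36.9 and 489 CPM in females at 5 mg/kg, against 271 to 3312 CPM in their controls (log2 fold change -2.78 ± 0.73 (SE), adjusted p = 0.0183). A single treated female lay inside the control range. Without female 4 at 5 mg/kg the value was -4.21 (adjusted p = 0.000538), without vehicle female 3 it was -1.90 (adjusted p = 0.144), and without female 3 at 5 mg/kg it was -2.45 (adjusted p = 0.101). The second probe of Sult3a1 was called too (-2.49, adjusted p = 0.0306). Sult1e1 was at 1.63, 0, 1.1 and 0 CPM, below all of the vehicle females (log2 fold change -4.60 ± 1.36 (SE), adjusted p = 0.0493). That call was lost without vehicle female 5 or without female 2, 3 or 4 at 5 mg/kg (adjusted p = 0.103 to 0.159).

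Sult2a1 had 701, 206, 495 and 1577 CPM in females at 5 mg/kg (log2 fold change -1.26 ± 0.61 (SE), adjusted p = 0.384). Sult2a2 had 95.3, 44, 80.1 and 155 CPM (-1.0 ± 0.35 (SE), adjusted p = 0.123). Sult2a3 had 14.4, 3.10, 1.67 and 39.6 CPM (-0.63 ± 0.67 (SE), adjusted p = 0.948) and Sult2a5 5.13, 0, 2.81 and 8.17 CPM (-1.71 ± 0.80 (SE), adjusted p = 0.360). Sult2a2 was called lower by DESeq2, without the filter on low counts, with the probes of a gene summed, with thinned counts, with each sex fitted apart and without the 2 mice of lowest total counts. Thinned counts and each sex fitted apart also called Sult2a5, each sex fitted apart Sult2a1, and thinned counts and no filter Sult3a2. The same mouse, female 4, was highest of the 4 for all of these, for Sult3a1 and Sult3a2 and also for Sult1a1 and Sult1b1. In males at 5 mg/kg Sult2a1 was at 18.4, 2.87, 7.13 and 6.03 CPM against 1.99 to 2.94 CPM in controls (log2 fold change 1.80 ± 0.72 (SE), adjusted p = 0.119; called higher without the filter on low counts), and Sult2a2, Sult2a3 and Sult2a5 did not exceed 1.13 CPM in any of these mice.

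**Figure D4:**
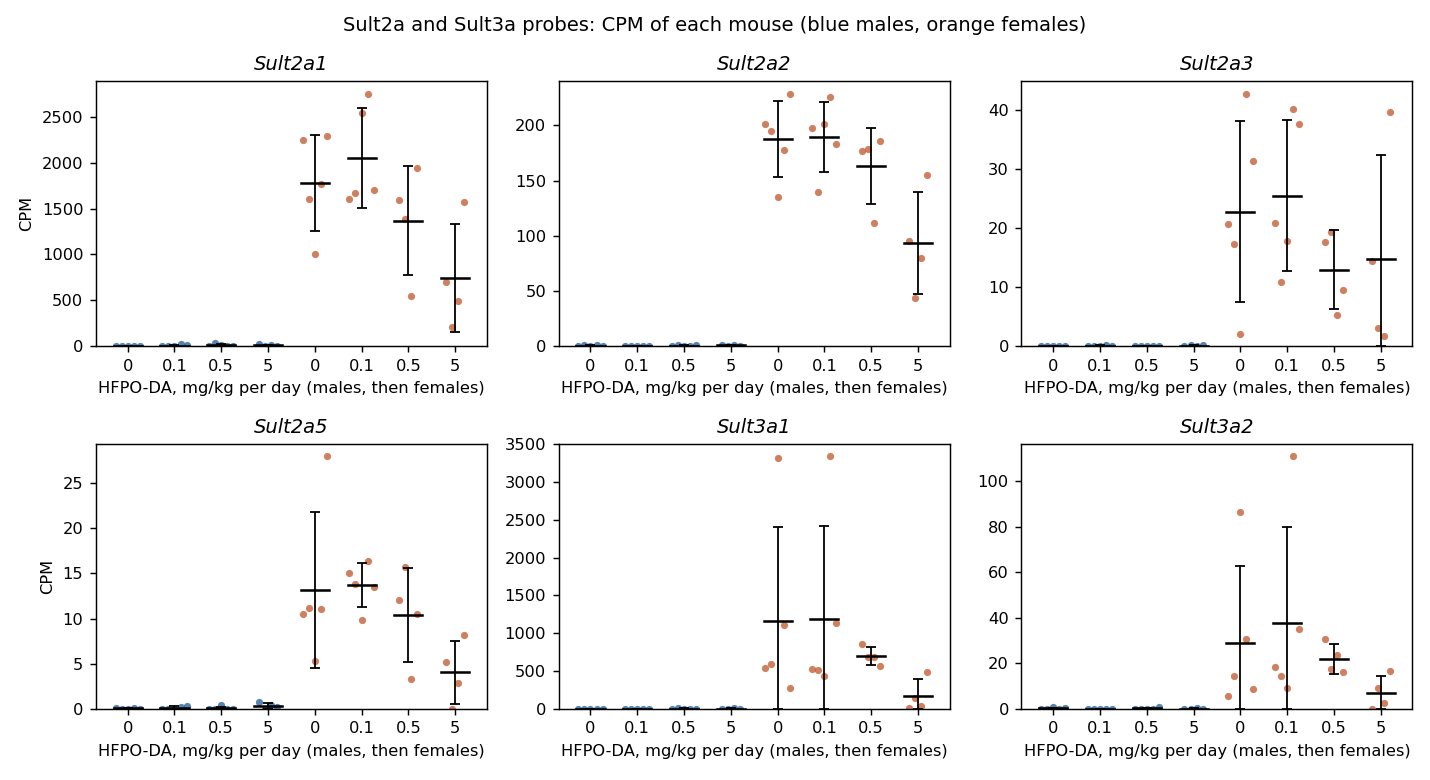
CPM of each mouse for 4 Sult2a and 2 Sult3a genes by dose in mg/kg per day (x axis), with males in blue and females in orange; lines are group means and bars 1 SD, drawn down to 0 at most (n = 4 or 5 mice). Male means stay far below female means throughout, though Sult2a1 reached 30.5 CPM in a male at 0.5 mg/kg. The female means at 5 mg/kg are below those of vehicle females. Of these differences edgeR called that of Sult3a1, and DESeq2 called Sult2a2 as well.

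Genes that supply the sugar donor were read too, and those called at 5 mg/kg in each sex included Ugdh and Ugp2. Ugdh, which oxidizes UDP-glucose to UDP-glucuronic acid, rose 2.34-fold in males and 2.08-fold in females (adjusted p = 7.23e-05 and 0.000986). Ugp2, which makes UDP-glucose, fell 2.48-fold in males and 2.16-fold in females (adjusted p = 1.57e-05 and 0.000281). Between the vehicle sexes Ugdh was 2.50-fold higher in males (adjusted p = 1.99e-05).

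At 5 mg/kg, 4.21% of all probes were called higher and 8.49% lower in males, and 2.26% higher and 2.26% lower in females. Of 14 genes for PAPS supply and sulfate handling, 1 rose and 3 fell at that dose in each sex. The 3 were the same in both sexes: Slc26a1, a sulfate transporter (log2 fold change -0.72 in males and -1.13 in females), Cdo1, which oxidizes cysteine (-1.84 and -0.86), and Sqor, which oxidizes sulfide (-0.99 and -0.84). Bpnt1, which breaks down the spent donor PAP, rose in males (0.51), and Csad, of taurine synthesis, in females (2.89). The PAPS synthases Papss1 and Papss2 were not called at any dose, and Papss2 was 1.75-fold higher in vehicle females (adjusted p = 0.0254). None of 6 deconjugating enzymes was called at 5 mg/kg in either sex by edgeR, and none had an unadjusted p under 0.05. Of 11 transporters of conjugates, Abcc4 and Abcg2 rose and Abcc6, Slco1b2 and Slco2b1 fell in males, and Abcc6 and Slco2b1 fell in females. Among receptors and factors known to act on UGT and SULT genes, those called lower at 5 mg/kg included Nr1h4 in males (-0.53) and Rxra in females (-0.55, adjusted p = 0.0437), while Rxra in males had -0.42 (adjusted p = 0.100). At the lower doses 2 genes of these lists were called, both in males at 0.5 mg/kg: Cdo1 (-0.70) and Abcc2 (0.59). Of all probes, 0.625% were called in that comparison.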

How the data were processed

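Liver sections of 37 mice were assayed by TempO-Seq. Per the labels, base calls were made with bcl2fastq 2.17.1.14 and reads aligned with Bowtie, whose version, like the reference build, is not given in the sources used here. The authors deposited raw counts of reads per probe, without normalization, for 37 of the 40 mice assayed; total counts were 2101495 to 13878254, and more counts give smaller counting error. Mice were grouped by the sex and dose in the labels. Chi-square tests over 68 pairs of mice of a group found no pair that was alike within sampling noise.

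The tests used edgeR 4.0.16 (R 4.3.3). Low counts were filtered with filterByExpr given the 8 groups, libraries were scaled by TMM, and counts were fitted by a quasi-likelihood model with 1 mean per group over all mice. Adjusted p-values are Benjamini-Hochberg over 18570 probes, and calls use 0.10. The fit was tested on simulated data with known changes. The first mark set for the share of changes recovered was missed. It was replaced by checks of the fold changes, of false calls and of recovery among genes of low spread. Changed genes of wide spread or low counts were often missed, so a gene not called may still have changed. A bound against a group at 0 counts uses a floor of 3 counts over that group; intervals and floors cover counting error only. Sequences come from GENCODE M21 and RefSeq. Alternatives were DESeq2 1.42.0, its size factors in edgeR, no filter, a threshold of 0.05, summed probes, thinned counts, each sex fitted apart, leaving out each mouse in turn and, chosen after the depths were seen, leaving out the 2 mice of lowest total counts (2608954 and 2101495).

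The genes, lists, tests and markers were chosen with earlier results of these data known. Values are given for the 12 members with the smallest p among those called at a dose, the 6 with the smallest adjusted p between vehicle sexes, and any called in the interaction; other called members have fewer values. Gene lists covered UDP-glucuronic acid supply, PAPS supply and sulfate handling, deconjugation, export of conjugates and receptors. Mice removed by the authors were not analysed here, and some genes of the lists of sugar donor supply and receptors are not reported here.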

Additional observations from a re-analysis of the deposited data

Results flagged for a closer look

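Of 131 groups of 4 or 5 mice examined over 17 members, 16 had a highest or lowest mouse that stood apart from its group. Its gap to the next mouse exceeded Dixon's 95% critical value, where 1 in 20 of the groups is 6.55. That rate holds for independent, normally distributed values. Here the same mice recur across groups, and some flags rest on very few counts, such as 1 count of Ugt1a10 in males at 5 mg/kg. Whether 16 is more than chance gives therefore cannot be decided. In 14 of the 16 the mouse was the highest of its group.

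For Sult3a1, the highest mouse had 2.86 CPM in males at 0.1 mg/kg, 10.1 CPM in males at 5 mg/kg, 3312 CPM in vehicle females and 3338 CPM in females at 0.1 mg/kg. For Sult2a5 the highest mouse had 0.370 CPM in males at 0.5 mg/kg and 27.98 CPM in vehicle females, and for Sult2a3 0.238 CPM in males at 0.1 mg/kg. Sult2a2 had a low mouse of 112 CPM in females at 0.5 mg/kg. Sult1b1 had a high mouse of 101 CPM in males at 0.1 mg/kg, and Sult5a1 one of 0.966 CPM in females at 5 mg/kg, the single treated female with any count.

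Among UGT genes, Ugt1a10 had a high mouse of 14.6 CPM in males at 0.1 mg/kg and of 0.155 CPM, which is 1 count, in males at 5 mg/kg. Ugt1a1 reached 850 CPM in a male at 0.5 mg/kg, Ugt2a2 20.7 CPM in a female at 0.1 mg/kg and Ugt2b38 0.936 CPM in a female at 5 mg/kg. Ugt2a3 had a low mouse of 218 CPM in males at 0.5 mg/kg.

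The change of Sult1a1 at 5 mg/kg differed between the sexes by -1.96 on the log2 scale, males minus females.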

How the results depend on the processing

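No fold change of a called member reversed under any alternative. Of the settings other than leaving out a mouse, 267 values of called members kept their call and 19 lost it. Not counted were those for which DESeq2 gave no adjusted p (Sult5a1 in females at 5 mg/kg, Sult1e1 and Sult2a5 between the vehicle sexes). Nor was Ugt1a2 in males at 5 mg/kg counted with thinned counts or each sex fitted apart, where it failed the filter. With 1 mouse left out, 327 kept their call and 36 lost it.

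Members called higher in males at 0.5 mg/kg went from 0 to 1 (Sult2a1) without the filter. The 1 member called higher in males at 5 mg/kg, Ugt2b34, went to 0 at a threshold of 0.05, with each sex fitted apart and without the 2 mice of lowest total counts; without the filter Ugt2b34 was lost too and Sult2a1 was called higher in its place. For the difference between the sexes at 5 mg/kg, members called higher went from 0 to 2 without the filter and 1 with DESeq2, and members called lower from 1 to 2 under both; Sult2a1, Sult3a1 and Ugt1a10 were those added. The cause was not tested.

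With 1 mouse left out in turn, members called lower were 11 to 13 in males and 8 to 12 in females at 5 mg/kg, and those called higher 0 to 1 in males and 0 to 0 in females. The interaction gave 0 to 2 higher and 1 to 1 lower, the vehicle sexes 2 to 3 higher in males and 10 to 12 higher in females, and each of the lower doses 0 to 0. At 5 mg/kg, fitting each sex apart called 9 members in males and 16 members in females. The size factors of DESeq2 moved the median log2 fold change of all probes in males at 5 mg/kg from -0.12 to -0.03 and lost Sult1d1 and Ugt2b35. No paired analysis was possible because the labels carry animal numbers and no replicate numbers shared between groups.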
